A study of Mus musculus and Heterocephalus glaber with 4 samples.

Results

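Accessible chromatin was compared between cultured skin fibroblasts of adult naked mole rats (Heterocephalus glaber) given SV40 large T antigen and control fibroblasts of the same species. ATAC-seq, which tags open DNA with adapters carried by a transposase, gave 1 library per group. Both groups were at passage 16 and grew at 32 °C with 15% serum, 3% O2 and 5% CO2, and 50000 cells entered each reaction. How large T was delivered, whether the cells were a clone or a pool, and how many animals they came from are details that the labels used here do not give. The same series holds a mouse control list and a mouse large T list, grown at 37 °C.

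The regions described are the naked mole rat peaks on scaffolds whose last peak, in either list, ends beyond 1 Mb. They number 161694 of the 302336 peaks of the 4 lists of the series. The control list contributed 79538 peaks and the large T list 82156, on 216 of the 757 scaffolds and contigs that carried a peak. This was 98.6% of each naked mole rat list. The shortest scaffold inside the limit was JH602259, whose last peak ended at 1003089 (57 control and 63 large T peaks). The longest one outside was JH602261, with a last peak ending at 873124 (46 and 42 peaks).

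Lists of unequal length differ in spacing and width for that reason alone, so both were brought to the same number of peaks. Each peak carries a score from the authors' peak caller, whose definition is not given, and scores were used only to rank peaks within their own list. All 79538 control peaks were set against the 79538 highest-scoring large T peaks, which left out the 2618 large T peaks of lowest score. The lowest score kept was 53.05 in the large T list and 50 in the control list. With 1 library per group there was no replicate error, so differences are described without a test. Intervals at the 95% level are exact binomial (Clopper-Pearson) ones for shares and order-statistic ones for medians. They cover counting error only and take neighbouring peaks as independent. Read depth is unknown, and both the number and the width of called peaks depend on it. Its part in the differences was not tested.

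Large T antigen is a viral protein that binds p53, which halts the cell cycle or triggers cell death after damage, and the retinoblastoma family, which holds back E2F-driven entry into S phase. Cells that express it commonly escape these brakes. An ATAC-seq peak marks a stretch where nucleosomes are absent or loosely held in a good share of the cells, as at promoters, enhancers and insulators. In a bulk library, opening in more cells and wider opening in each cell cannot be told apart. No gene annotation of these scaffolds was used, so sites are named by scaffold and position (starts counted from 1), and the fibroblast label was not checked against marker genes.

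Peaks of the large T list lay slightly farther apart. The median gap from the end of a peak to the start of the next was 13536 bp (95% interval 13397 to 13688) in control cells and 14104 bp (13951 to 14244) in large T cells, over 79322 gaps in each list. Gaps under 5 kb made up 18.9% of control gaps (18.6 to 19.2) and 17.4% of large T gaps (17.1 to 17.6), a difference of -1.53 percentage points. The deficit lay at short range. Gaps under 0.5 kb were 1850 in control and 1593 in large T cells, and gaps of 0.5 to 2 kb were 3773 and 3287. From 5 to 10 kb the shares were close, at 20.8% and 20.9%, and from 20 to 50 kb large T cells had more, 24.8% against 23.9%. Gaps of 100 kb or more numbered 3648 and 3763. When 40000 peaks of top score were kept per list, the share under 5 kb differed by -0.15 points (counting error ± 0.33). The difference was -0.78 points with all peaks of both lists, and -3.29 points at equal covered length. A list of 40000 peaks is sparser on the same scaffolds, so its difference in points is not directly comparable with -1.53. Whether weaker peaks carried the difference was therefore not tested.

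**Figure D1:**
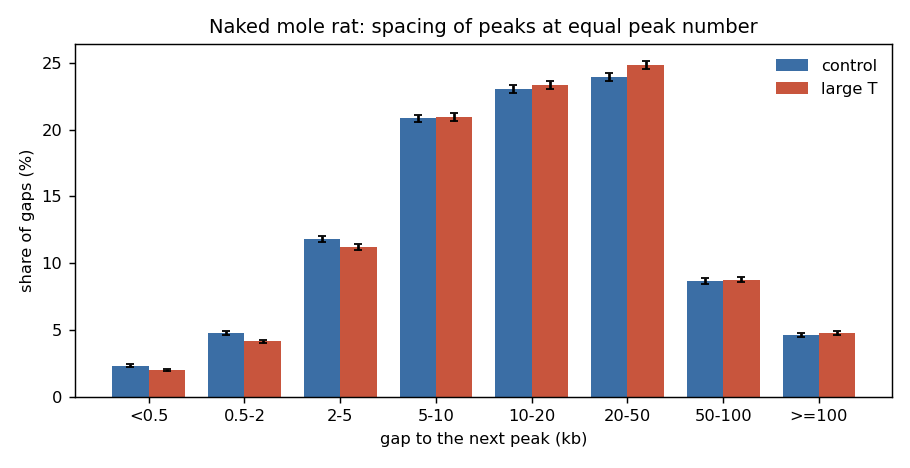
Share of gaps between neighbouring peaks (%, vertical axis) by gap length in kb (horizontal axis) in the naked mole rat control and large T lists at 79538 peaks each; bars are 1 library, and lines are exact 95% binomial intervals. Large T bars are lower in all 3 classes under 5 kb and higher from 20 to 50 kb.

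Close neighbours of one list were followed into the other. Of the 14989 control neighbours less than 5 kb apart, 7482 (49.9%, 49.1 to 50.7) were found as separate peaks in large T cells. In 5729 cases (38.2%) only 1 of the neighbours overlapped a large T peak, and in 1178 (7.86%) neither did. In 600 (4.00%) a single large T peak overlapped both. Of the 13776 large T neighbours less than 5 kb apart, 7743 (56.2%, 55.4 to 57.0) were separate peaks in control cells. In 4666 cases (33.9%) only 1 overlapped a control peak, and in 398 (2.89%) a single control peak overlapped both. The share found intact was thus lower for close control neighbours, and the share with only 1 member found was higher. The 2618 large T peaks left out could not be found as counterparts, while no control peak was left out. The part of this in the contrast was not tested. For neighbours 5 to 20 kb apart the shares found intact were 61.4% and 61.6%.

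Peaks found in only 1 list sat differently beside their neighbours. The 19216 control peaks with no large T counterpart had a median distance of 6947 bp to the nearest control peak, shorter than the 7528 bp of shared control peaks. The 19418 large T peaks with no control counterpart had a median distance of 8277 bp, longer than the 7677 bp of shared large T peaks. Within 5 kb of a shared peak of their own list lay 27.8% (27.1 to 28.4) of the control-only peaks and 22.4% (21.8 to 23.0) of the large T-only peaks. Their median widths were similar, 930 bp and 949 bp. List-only peaks of the control cells thus lay closer to shared sites than those of the large T cells. Only the large T list had been trimmed, so some control-only peaks may overlap 1 of the 2618 large T peaks left out. How many do was not counted, and these distances were not taken with all peaks.

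Large T peaks were wider at every level of score rank within the list. The median width was 1211 bp (1206 to 1216) in control and 1248 bp (1243 to 1254) in large T cells, a difference of 37 bp. Widths increased with score in both lists (Spearman correlations of 0.68 and 0.67 over peaks, a description, since both come from the same reads). Each list was therefore divided into 10 equal groups by score, called deciles, with decile 10 the highest. Deciles are ranks within a list, and their scores differed. Decile 1 began at 50 in control and 53.05 in large T cells, and decile 10 at 488.74 and 519.11. Widths at equal score were not compared. The large T median exceeded the control median in all 10 deciles. The excess was 48 bp in decile 1 (822 against 774 bp) and 24 bp in deciles 4 and 6. It was 52 bp in decile 8, 94.5 bp in decile 9 and 112 bp in decile 10 (2158 against 2046 bp). The spread within a decile was far larger than these shifts: in decile 10 the quartiles were 1696 and 2507 bp in control and 1800 and 2622 bp in large T cells. With all peaks of both lists the difference in median width was 16 bp. It was 63 bp among the 40000 highest-scoring peaks and 85 bp at equal covered length.

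Broad peaks of at least 2 kb were more numerous in large T cells. They numbered 13772 in control cells (17.3%, 17.1 to 17.6) and 15844 in large T cells (19.9%, 19.6 to 20.2), a difference of 2.61 points. In decile 1 they were 1.89% and 2.54% of peaks, in decile 5 they were 8.98% and 10.1%, and in decile 10 they were 52.7% and 60.5%. The difference was 0.65 points in decile 1 and 7.72 points in decile 10. As a ratio of shares it was instead highest in decile 1, at 1.35, and 1.15 in decile 10. The relative excess in median width was likewise 6.20% in decile 1, 1.94% in decile 6 and 5.47% in decile 10. The median distance to the nearest peak was longer in large T cells in 9 of 10 deciles, by 818 bp in decile 3, and differed by 26 bp in decile 9 and -24.5 bp in decile 10.

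**Figure D2:**
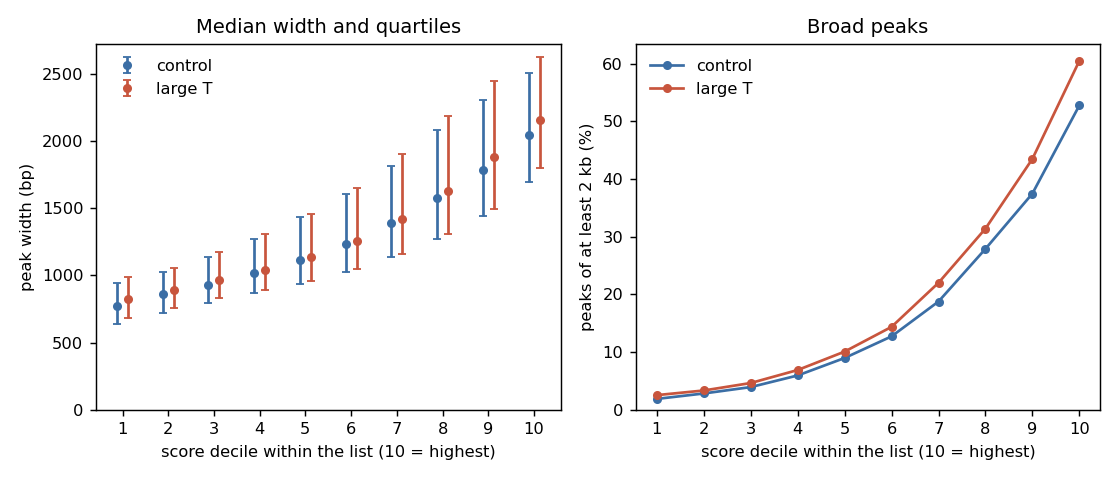
Peak width in bp (left, medians with lower and upper quartiles) and share of peaks of at least 2 kb (right, %) by score decile within the naked mole rat control and large T lists. Large T values are higher in all 10 deciles, by 112 bp and 7.72 points in decile 10.

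The same sites were wider in large T cells. By longest overlap, 59782 control peaks were matched 1 to 1 with a large T peak, 75.2% of each list. Their median widths were 1352 bp in control and 1407 bp in large T cells. The median log2 ratio of large T to control width was 0.065 (0.062 to 0.067), a ratio of 1.05. Of these sites 35473 (59.3%, 58.9 to 59.7) were wider in large T cells, 24200 were narrower and 109 had equal width. At least 1.5-fold wider were 5999 (10.0% of the pairs), and at least 1.5-fold narrower were 3947 (6.60%). The middle 50% of sites lay between -0.14 and 0.29 on the log2 scale, so most sites changed in width by little and in both directions around a small common shift.

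**Figure D3:**
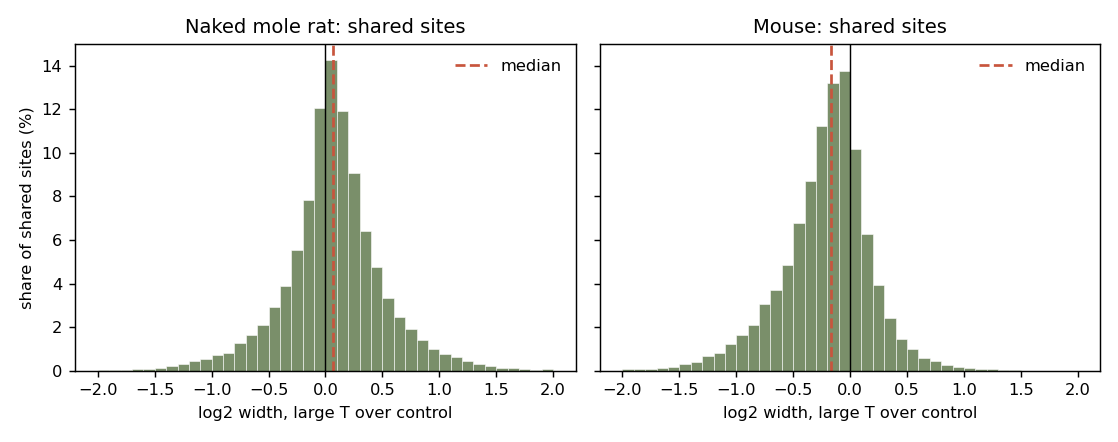
Log2 ratio of large T to control width (horizontal axis, bins of 0.1, values beyond ±2 put in the end bins) as a share of shared sites (%, vertical axis) in naked mole rat (59782 sites) and mouse (49611 sites). The dashed median lies at 0.065 in naked mole rat and at -0.17 in mouse.

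The shift was present in narrow and broad sites alike. By the geometric mean of both widths, the median log2 ratio was 0.063 for sites under 1 kb, 0.061 for sites of 1 to 2 kb and 0.071 for sites of 2 kb and over. The broad sites had the largest share wider in large T cells, 64.9% against 56.7% of those under 1 kb. By score, the median was 0.090 for sites whose mean percentile rank was at most 25, and 0.055 for those above 75. In this paragraph percentile ranks were taken among the shared sites only, by control and by large T score, and not over the whole lists. Large changes were rarer among high-scoring sites: 2.96% of the latter were at least 1.5-fold wider, against 13.9% of the former. Width moved with rank. Sites whose percentile rank was higher by over 25 points in large T cells had a median log2 ratio of 0.41 (5682 sites), and those over 25 points lower had -0.34 (6471 sites). Score and width come from the same reads, so the 2 are not separate measurements.

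Widening took place at both ends. The median outward move of the boundary in large T cells was 19 bp at the end of lower coordinate and 26 bp at the end of higher coordinate. Both ends lay farther out in 21922 sites (36.7%) and both farther in in 13054 (21.8%). In 38.3% of sites one end moved out and the other in. The centre moved by a median of 81.5 bp, and by at most 100 bp in 58.1% of sites.

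Among the 29819 shared sites in the upper 50% of both lists by score, 1677 were at least 1.5-fold wider and 1205 at least 1.5-fold narrower in large T cells. Such changes were rarer here than over all shared sites, where the shares were 10.0% and 6.60%. Between the lists of 40000 highest-scoring peaks the shares were 5.82% and 4.13%. The largest widening was on scaffold JH602131, where a control peak of 1607 bp (7730265 to 7731871) matched a large T peak of 5825 bp (7730338 to 7736162), 3.62-fold wider. Its ranks were similar, 35842 in the control and 37345 in the large T list. The extension was towards higher coordinates only. On JH602085 a control peak of 1044 bp (18472605 to 18473648) matched a large T peak of 3612 bp (18470558 to 18474169), ranked 21083 and 21134. Here most of the extension was towards lower coordinates. Next came JH602067 at 15340150 to 15341239 (1090 bp against 3734 bp), JH602130 at 885916 to 887099 (1184 against 3826 bp) and JH602177 at 1503062 to 1503720 (659 against 2117 bp). None of these 5 sites held a second peak in either list.

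The largest narrowing was on JH602172, where a control peak of 4818 bp (4435596 to 4440413) was matched with a large T peak of 1100 bp (4437636 to 4438735). This control peak overlapped 2 large T peaks, the other of 1055 bp (4435868 to 4436922). No large T peak overlapped the control peak beyond 4438735, so the narrowing was only in part a division of the site. The other 4 sites were JH602070 at 1304507 to 1309058 (4552 bp in control and 1311 bp in large T cells), JH602073 at 14919417 to 14922353 (2937 and 872 bp), and JH602045 at 24458968 to 24464895 (5928 and 1795 bp) and at 45426336 to 45429264 (2929 and 902 bp). The JH602073 site was also divided: a second large T peak of 1180 bp (14919631 to 14920810), with a score of 52.96, fell just below the lowest score kept. The remaining 3 had 1 peak in each list. All 5 ranked lower in the large T than in the control list, from 17315 against 18402 on JH602172 to 23970 against 37015 at the first JH602045 site.

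Joining of sites was more frequent than splitting. Overlapping peaks of both lists formed 59722 sites, of which 58785 (98.4%) held 1 control and 1 large T peak. In 539 sites (0.90%) 1 large T peak overlapped 2 control peaks, here called joined. In 337 (0.56%) 1 control peak overlapped 2 large T peaks, here called split. A further 61 sites were chains of 2 and 2. Of the 876 sites with unequal numbers, 38.5% (35.2 to 41.8) were split in large T cells, a ratio of joined to split sites of 1.60. No site held more than 2 peaks of a list. With each list reduced to its 40000 highest-scoring peaks, only 19 sites were split and 19 joined, a split share of 50% (33.4 to 66.6). This interval also holds 38.5%, so with so few sites this setting cannot decide whether the imbalance was present there.

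Split and joined sites were built alike. The undivided peak had a median width of 2583 bp in split and 2942 bp in joined sites, and 72.1% and 80.9% of them were at least 2 kb wide, against 17.3% and 19.9% of all peaks. An undivided peak must reach 2 separate peaks of the other list, so this excess follows at least in part from the definition. The pieces had median widths of 1150 and 1247 bp, near those of the whole lists. They stood apart by a median of 100 bp in split sites (quartiles 36 and 237 bp) and 132 bp in joined sites (53 and 304 bp). Undivided peaks stood at a median score percentile of 70.6 and 68.5, and their pieces at 32.7 and 30.3. Split sites were spread over 128 scaffolds and joined sites over 152.

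The highest-scoring split site was on JH602043, where a control peak of 2032 bp (10411200 to 10413231), ranked 1192, corresponded to large T peaks of 1293 and 764 bp that were 105 bp apart and ranked 13770 and 52916. It was followed by JH602056 at 27878919 to 27882458 (3540 bp, with large T pieces 59 bp apart), JH602103 at 1806541 to 1809144 (2604 bp, 175 bp), JH602059 at 7689772 to 7692889 (3118 bp, 189 bp) and JH602051 at 28911953 to 28915444 (3492 bp, 15 bp). At JH602103 both pieces stood far down the large T list, at ranks 61724 and 53503, and the control peak ranked 1826. At the first site, by contrast, the stronger piece remained in the upper part of the list. These sites were picked for the score of the control peak, so lower ranks of the pieces follow in part from the choice.

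The highest-scoring joined site was on JH602101. A large T peak of 2617 bp (8957771 to 8960387), ranked 2880, overlapped control peaks of 927 and 1317 bp. These stood 172 bp apart and ranked 75898 and 35637. The next were JH602106 at 11577946 to 11581706 (3761 bp, control peaks 14 bp apart), JH602052 at 26842353 to 26845056 (2704 bp, 15 bp), JH602064 at 11251221 to 11254672 (3452 bp, 164 bp) and JH602044 at 8079662 to 8082878 (3217 bp, 122 bp). These sites were picked for the score of the large T peak, so its rank is a description.

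**Figure D4:**
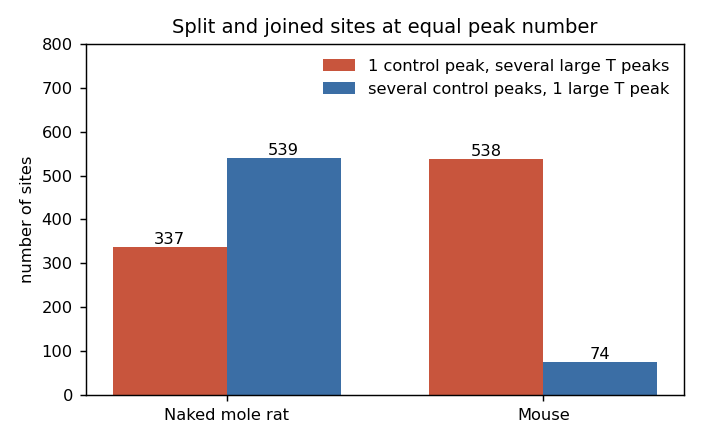
Number of sites (vertical axis) at which 1 control peak corresponded to several large T peaks (red) or several control peaks to 1 large T peak (blue), at equal peak number within each species. Joined sites were the more numerous in naked mole rat (539 against 337) and split sites in mouse (538 against 74).

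At the scale of 1 Mb the landscapes of both lists were alike. Windows were counted from the start of each scaffold, and 2221 of the 2633 windows with a peak held 20 or more peaks when both lists were added. The median window held 35 control and 35 large T peaks, and the numbers were ordered alike (a Spearman correlation of 0.91 over windows, a description, since 75.2% of the peaks of each list were matched sites). With 1 added to each number, 77 windows (3.47%) had at least 1.5-fold more large T peaks and 104 (4.68%) at least 1.5-fold fewer. The other 2040 windows (91.9%) lay between. The direction of this split depended on how the lists were brought to a common size. With all peaks of both lists 93 windows had more and 84 fewer, and at equal covered length 48 had more and 153 fewer. Past 2-fold lay 19 windows with more and 17 with fewer.

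The share of windows past 1.5-fold was highest among sparse ones. Of the 368 windows with 20 to 39 peaks, 27.7% lay past it, against 7.56% of the 1032 windows with 40 to 79 peaks and 1 of 821 windows with 80 peaks or more. The SD of the log2 ratio over windows was 0.60, 0.31 and 0.17 in these classes. The ratio of a sparse window has a large counting error, and the windows named next are the extremes of 2221, for which their intervals make no allowance.

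**Figure D5:**
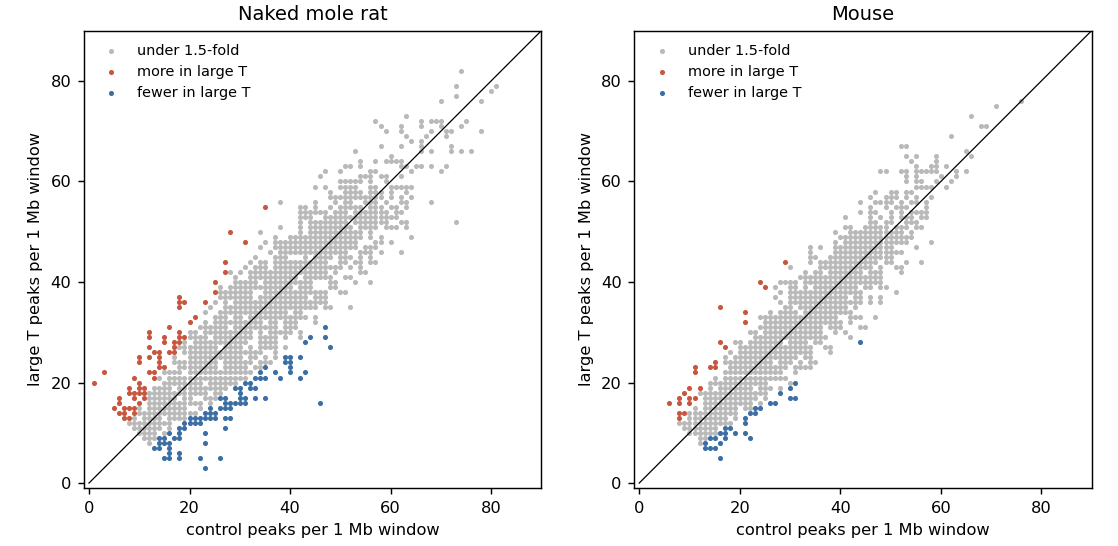
Large T peaks (vertical axis) against control peaks (horizontal axis) per 1 Mb window at equal peak number, for windows with 20 or more peaks when both lists are added; points are windows, the line marks equal numbers and colours mark ratios past 1.5-fold. In naked mole rat 77 windows lay past it with more and 104 with fewer large T peaks, and in mouse 25 and 41.

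The window with the highest ratio was 5000001 to 6000000 on JH602111, with 1 control and 20 large T peaks. The large T share was 95.2% (76.2 to 99.9), and 19 of the 20 large T peaks had no control counterpart. The window before it held 0 control and 6 large T peaks, also more in large T cells but too few to be counted. The window after it held 45 and 46, so the excess did not extend to that side. The window 6000001 to 7000000 on JH602052 held 3 and 22 peaks, a share of 88.0% (68.8 to 97.5), between windows with 35 and 40 and with 34 and 42 peaks. Windows on JH602056 from 24000001 (5 and 15 peaks), JH602167 from 1000001 (6 and 17) and JH602124 from 10000001 (6 and 16) followed. Their large T shares had intervals of 50.9 to 91.3%, 51.6 to 89.8% and 49.8 to 89.3%, the last of which holds equal numbers. In all 5 windows at most 1 control peak lacked a large T counterpart. The windows held 10 to 19 large T peaks without a control counterpart. They were picked for many large T and few control peaks, so this composition follows largely from the choice.

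The window with the lowest ratio was 29000001 to 30000000 on JH602053, with 23 control and 3 large T peaks, a large T share of 11.5% (2.45 to 30.2). All 3 large T peaks were shared and 20 control peaks were not. Its neighbours held 43 and 47, and 59 and 51 peaks. The window 16000001 to 17000000 on JH602049 held 26 and 5 peaks, of which 22 control peaks were control-only (large T share 16.1%, 5.45 to 33.7). Windows on JH602196 from 3000001 (22 and 5 peaks), JH602110 from 1 (18 and 5) and JH602070 from 24000001 (16 and 5) followed, with intervals of 6.30 to 38.1%, 7.46 to 43.7% and 8.22 to 47.2%. The list-only peaks of such windows were not strong ones: over the 104 windows with fewer large T peaks, control-only peaks had a median score percentile of 30.5, against 24.5 in the windows under 1.5-fold. Large T-only peaks of the 77 windows with more had 25.7, against 22.2.

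Some of these windows were adjacent. Of the 104 with fewer large T peaks, 22 had a neighbour of the same kind, in 11 pairs of adjacent windows, on JH602045, JH602054, JH602068, JH602070, JH602081, JH602083, JH602110, JH602116, JH602126, JH602142 and JH602201. Of the 77 windows with more, 2 were adjacent, on JH602052 from 10000001 to 12000000 (59 control and 98 large T peaks). Windows with fewer made up 4.68% of all counted windows, and those with more 3.47%. Both kinds were commoner among sparse windows, and how much adjacency this alone would give was not tested. Of the 136 scaffolds with at least 5 windows, 53 had no window past 1.5-fold.

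Shared sites changed in width with the peak number around them. Width was not used to choose the windows. Over shared sites it moved with the shift in score rank (a Spearman correlation of 0.44), and score decided which peaks were kept. Width is therefore not separate from the choice. In the 77 windows with more large T peaks, the median log2 width ratio of 896 shared sites was 0.16, and 69.1% of them were wider in large T cells. In the 104 windows with fewer, it was -0.13 over 1285 sites, and 35.6% were wider. In the remaining windows it was 0.068, with 59.9% wider. Ranks among shared sites moved likewise, by a median of 2.55, -7.04 and 1.09 percentile points towards large T. Over the 2045 windows with at least 10 matched sites, the Spearman correlation between the ratio of peak numbers and the median width ratio was 0.37. This is a description, since both values come from the same libraries. The median shared site was wider in large T cells in 1458 of these windows (71.3%).

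Whole scaffolds also differed in width. Among 145 scaffolds with at least 100 matched sites, the median shared site was wider in large T cells on 130 and narrower on 15, and 90% of scaffolds had a median log2 width ratio between -0.054 and 0.18. JH602052 was highest of the 145 in both width ratio and peak-number ratio. It held 888 control and 1186 large T peaks, and its 706 shared sites had a median log2 width ratio of 0.31, with 80.2% wider. All 27 of its windows with at least 10 matched sites had a median above 0, from 0.049 to 0.46. It held 14 joined and 2 split sites, 10 of the 77 windows with more large T peaks, and a median gap of 18051 bp in control against 14932 bp in large T cells. The scaffold had earlier been picked for its peak number, so that value is a description. Without it the number of windows with more large T peaks was 67, and the median log2 width ratio of all shared sites was 0.063.

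JH602116 was lowest of the 145 in both. It held 232 control and 148 large T peaks, and its 126 shared sites had a median log2 width ratio of -0.32, with 17.5% wider. None of its 5 windows with at least 10 matched sites had a median above 0, and 5 of its 9 counted windows had at least 1.5-fold fewer large T peaks. JH602110 (301 and 221 peaks, width ratio -0.21) and JH602195 (191 and 148, -0.22) also combined fewer peaks with narrower shared sites. JH602141 and JH602145 had the second and the third highest width ratios, 0.24 and 0.23, with all 8 of their windows above 0 and 11 and 10 joined against 0 split sites. By peak-number ratio they stood 18 and 20 of 145, with 489 control and 534 large T peaks on the former and 401 and 433 on the latter, and large T peaks were more in 8 of 8 and 6 of 8 windows. Neither held a window past 1.5-fold. On JH602122 the shared sites were narrower (-0.21) at similar peak numbers (386 and 375). DNA copy number of these scaffolds was not measured, and its part in these values was not tested.

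The mouse lists, treated in the same way at 63258 peaks each, gave values of the opposite sign for spacing, width and splitting. Equalising left out the 11862 mouse control peaks of lowest score, against 2618 large T peaks in naked mole rat, so in both species the trimmed list was the one with wider peaks. Gaps under 5 kb were 12.7% of control and 15.3% of large T gaps, but with all peaks the difference was -0.83 points, the same sign as in naked mole rat. The median width was 1325 bp in control and 1158 bp in large T cells, and the large T median was lower in all 10 deciles. The difference was -167 bp, and -62 bp with all peaks. Over 49611 matched sites the median log2 width ratio was -0.17, with 1.95% at least 1.5-fold wider and 15.1% at least 1.5-fold narrower. Split sites numbered 538 and joined sites 74. Past 1.5-fold in peak number lay 66 of 1911 windows (3.45%), 25 (1.31%) with more and 41 (2.15%) with fewer large T peaks, against 8.15% in naked mole rat. This order turned with all peaks (9.99% against 7.94% in naked mole rat) and at equal covered length (11.8% and 9.12%). Windows with more large T peaks also had the higher width ratio in mouse (-0.057 against -0.20 in those with fewer). The difference between the species was not tested, and it cannot be told apart from the culture temperature or from the libraries.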

How the data were processed

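Each library came as 1 list of peaks without a header line, in which the authors gave a scaffold, start, end, peak name and score (5 columns). Peak names begin with MACS, per the deposited files. The score was deposited by the authors with a minimum near 50, and no source used here defines it. Per the submitters' processing notes, CASAVA, Bowtie, SAMtools and bedtools were used and the build was mm9, which cannot be that of naked mole rat scaffolds. No source used here names their assembly release. Nothing states that libraries were pooled.

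The members and measures were chosen with earlier results of these data known. Peaks were ranked by score within a list (ties by position), paired 1 to 1 by longest overlap of at least 1 bp, joined into sites by overlap, and put into windows by their centre. The text names the 5 windows of highest and of lowest ratio (at least 20 peaks, 1 added to each number), the 5 shared sites that widened and the 5 that narrowed most among pairs in the upper 50% of both lists, and the 5 highest-scoring split and joined sites. Scaffolds and sites beyond these, and the analyses of neighbours, of scaffolds and of width within windows, were chosen after their values were seen. Gene lists and marker genes had also been planned and were not used, because the gene table at hand was of mouse. Scripts were tested on simulated lists with planted splits, joins, widenings and thinned windows, and the overlap function gave the same 60720 overlaps as bedtools 2.31.1. The tools were Python 3.11.15, numpy 2.4.6, pandas 2.3.3, scipy 1.17.1 and matplotlib 3.10.9.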

Additional observations from a re-analysis of the deposited data

Results flagged for a closer look

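In all, 4 measures differed between large T and control cells in opposite directions in naked mole rat and mouse, with 1 library per group, and the differences were not tested. Since the same peaks underlie every measure, they are not independent of each other. The share of gaps under 5 kb, large T minus control, was -1.53 percentage points in naked mole rat and 2.64 points in mouse, and with all peaks of both lists the mouse value was -0.83 points, the same sign as in naked mole rat (-0.78). The median width differed by 37 bp and -167 bp, and with all peaks by 16 bp and -62 bp. The median log2 width ratio of shared sites was 0.065 and -0.17. Of the sites with unequal peak numbers, 38.5% were split in naked mole rat large T cells and 87.9% (95% interval 85.1 to 90.4) in mouse large T cells.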

How the results depend on the processing

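The 5 main measures were recomputed under 44 alternatives: 29 values stayed within counting error (or within 1.5 times for the count of windows), 15 moved and 0 changed direction. The count of windows has no direction of its own; its split into more and fewer did turn, from 77 and 104 to 93 and 84 with all peaks and 19 and 17 with a fold of 2. The gap difference was -0.78 points with all peaks, -0.15 with the 40000 highest-scoring peaks, -3.29 at equal covered length and -0.94 for gaps under 2 kb. The difference in median width was 16 bp, 63 bp and 85 bp under the first 3 of these. The median log2 width ratio was 0.058 with the 40000 highest-scoring peaks, 0.070 at equal covered length and 0.061 with an overlap of at least 50% of the longer peak. The split share was 50% with the 40000 highest-scoring peaks (interval 33.4 to 66.6) and 33.4% at equal covered length. The number of windows past 1.5-fold was 181 and moved to 65 with 2 Mb windows, 36 with a fold of 2 and 79 with at least 40 peaks. Equal covered length, windows shifted by 0.5 Mb (166 past 1.5-fold) and the lists without JH602052 were chosen after seeing the data. Of 60 values of named windows and sites, 59 stayed and 1 moved, the width ratio of the JH602073 site (log2 -1.75, and -1.32 with all peaks). This count says little about stability. The named sites came from the upper 50% of both lists, so their peaks remained in the alternative lists with the same boundaries. A window counted as stayed inside the binomial interval of its main value, which is wide for so few peaks. No paired analysis was possible because each group has 1 library. Read depth is unknown, so its limit on width, spacing and number could not be given.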
